A study of Arabidopsis thaliana with 9 samples.

Results

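The genes described here are 9 Arabidopsis thaliana loci that encode late embryogenesis abundant (LEA) proteins of dry seeds, taken by locus identifier from a table of 33278 loci. They are EM1 (AT3G51810), EM6 (AT2G40170), LEA7 (AT1G52690), ECP63 (AT2G36640), M17 (AT2G41260), M10 (AT2G41280) and the loci AT3G15670, AT3G17520 and AT3G53040, which carry no symbol. Seedlings were 6 days old, and RNA-seq was done on 2 libraries of wild-type Columbia-0 and 2 that carry the label hd2b hd2c double mutant. HD2B and HD2C are histone deacetylases of a class found in plants. The comparison addresses how transcript levels depend on these enzymes. The labels give growth on soil at 21 degrees under continuous light for both genotypes and name no treatment. They give neither the mutant alleles nor whether each library had its own plants. P-values therefore measure the spread between these libraries alone, and that spread may be technical. The other 5 samples of the series are chromatin and RNA immunoprecipitations from leaves of 2-week plants and are not analysed here.

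LEA proteins are very hydrophilic, mostly unstructured in solution, and accumulate in the embryo as the seed dries at the end of maturation. They are known to protect membranes and proteins from water loss. In Arabidopsis their genes are switched on late in embryogenesis by abscisic acid and by the seed regulators ABI3 and ABI5, and their transcripts are stored in the dry seed and disappear as the seedling establishes. Some members of the wider family also respond to cold and drought in leaves and roots.

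Levels are FPKM, a fragment number per length of transcript and per size of library, so that genes can be compared. FPKM summed to 956002 to 1105981 per library, and 19537 to 19767 loci reached 1 FPKM. Without fragment counts the depth is unknown, and values carry no counting interval. HD2B fell from 138 and 191 FPKM in wild type to 24.2 and 24.3 in the labelled mutant, and HD2C stood at 56.1 and 63.9 against 74.7 and 55.8, a log2 change of 0.11 (adjusted p = 0.791). Since HD2C transcript was not lower, the text speaks of labelled mutant libraries, and directions follow the labels. Leaf markers summed to 31473 and 29137 FPKM in wild-type seedlings, and the labelled mutant libraries had 24742 and 32680 FPKM. These markers were thus high in all 4 libraries.

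The LEA genes were weakly expressed in these seedlings, and most were higher in the labelled mutant. Their summed level was 15.3 and 18.4 FPKM in wild-type libraries 1 and 2 and 28.3 and 52.6 FPKM in labelled mutant libraries 1 and 2. Group means were higher in the labelled mutant for 8 of the 9 genes. In 7 of the 9 both labelled mutant libraries lay above both wild-type libraries, against 21% of all 27676 loci that were above 0 in at least 1 library. The exceptions were LEA7 and ECP63. Only AT3G17520 rose by the test used here, limma on log2(FPKM + 1) with p adjusted over all loci tested (threshold 0.05). Of 19917 tested loci, 0.608% were called higher and 0.552% lower. No member was called lower in limma, and none had an unadjusted p under 0.05 in that direction, against 4 of the 7 tested in the other. Of all tested loci, 1836 were higher and 1584 lower at an unadjusted p under 0.05, together 17.2%. Over the 9 genes the median difference in log2(FPKM + 1) was 1.15, while that of all loci above 0 was 0.00. Of the 4 with an unadjusted p under 0.05, EM1 entered the test only through the labelled mutant libraries. The 9 genes were chosen with earlier results of these data known, so these counts and this median are given as a description.

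Of the 9 genes, 7 had at least 1 FPKM in at least 2 libraries and were tested. ECP63 and M10 did not reach this level, and EM1 reached it only through the labelled mutant libraries, so the tested genes do not stand for all members.

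**Figure D1:**
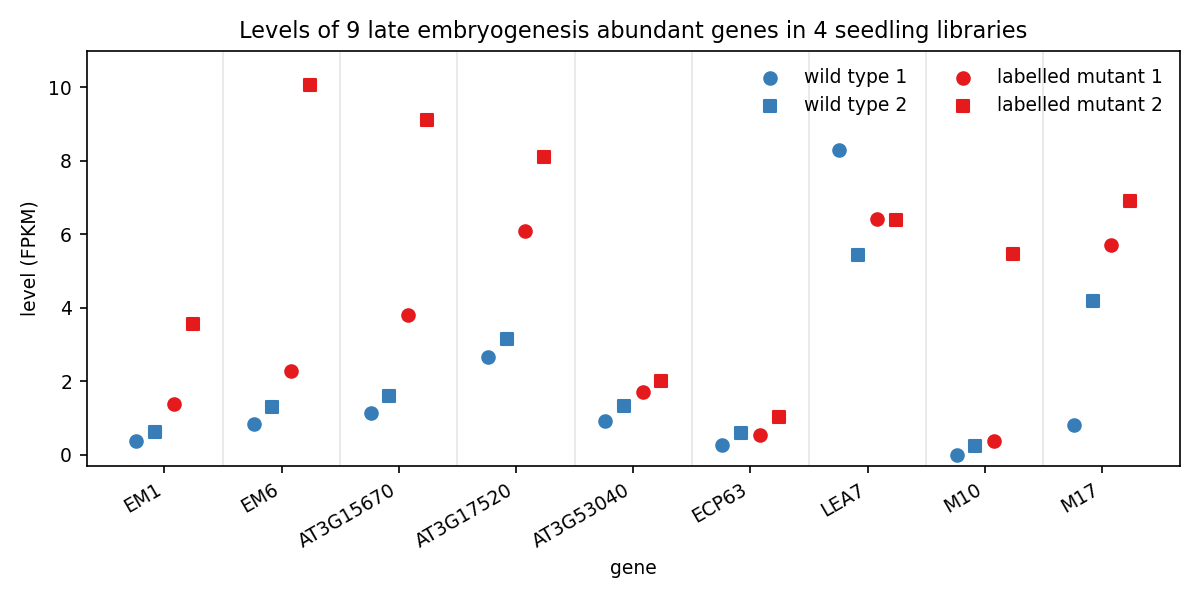
Level in FPKM (vertical axis) of each of the 9 genes (horizontal axis) in the 4 libraries: blue for wild type, red for the labelled mutant, circles for libraries numbered 1 and squares for those numbered 2. Labelled mutant library 2 holds the highest value for every gene except LEA7, where wild-type library 1 is highest at 8.30 FPKM.

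EM1 and EM6 encode the Em proteins, short glycine-rich LEA proteins of the group known as LEA_5, and are classic targets of ABI5. EM1 stood at 0.369 and 0.608 FPKM in wild-type libraries 1 and 2 and at 1.39 and 3.55 FPKM in the labelled mutant. The groups did not overlap, and labelled mutant library 2 was 2.55 times labelled mutant library 1. The means differed 5.06-fold (0.488 ± 0.169 against 2.47 ± 1.53 FPKM, SD, n = 2), a log2 change of 1.15 (SE 0.30, 95% interval 0.44 to 1.87, adjusted p = 0.141), which did not pass. EM6, whose loss is known to make seeds dry out too early, stood at 0.841 and 1.29 FPKM in the wild-type libraries, against 2.27 and 10.1 FPKM in those of the labelled mutant. Again the groups did not overlap, but the labelled mutant libraries differed 4.44-fold from each other. The EM6 log2 change was 1.55 (SE 0.73, interval −0.74 to 3.84, adjusted p = 0.422). The spread between the labelled mutant libraries was thus as large as the difference between the genotypes for EM6. Without labelled mutant library 1 both genes passed (adjusted p = 0.0262 for EM1 and 0.00288 for EM6), and without labelled mutant library 2 neither did (0.248 and 0.229). EM1 also passed with columns rescaled to the same sum, without rRNA loci (0.0299) or with all loci kept (0.0324).

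AT3G17520, AT3G15670, AT3G53040, ECP63 and LEA7 belong to the LEA_4 group, whose proteins carry repeats of a short motif and can fold into helices as they dry. AT3G17520 stood at 2.67 and 3.14 FPKM in wild-type seedlings, and the labelled mutant libraries had 6.09 and 8.10 FPKM. It had small spread in both genotypes and groups that did not overlap. It rose 2.44-fold, from 2.90 ± 0.338 to 7.10 ± 1.42 FPKM (log2 change 1.04, SE 0.17, interval 0.65 to 1.44, adjusted p = 0.0348). The call held in 10 of 14 other settings. It ended without labelled mutant library 2 (adjusted p = 0.0767), with no filter on low values (0.178), without the mean-variance trend and robust moderation (0.0701), and once a trend on gene span was taken out (0.0542).

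AT3G15670 and EM6 had log2 changes of nearly the same size, and their order depended on the pseudocount. The levels of AT3G15670 were 1.12 and 1.61 FPKM in the wild-type libraries, against 3.80 and 9.11 FPKM in those of the labelled mutant. The groups did not overlap, and labelled mutant library 2 was 2.39 times library 1. The means differed 4.73-fold (log2 change 1.57, SE 0.37, interval 0.63 to 2.50, adjusted p = 0.145). It did not pass in the fit used here. With columns rescaled to the same sum it passed, without rRNA loci (adjusted p = 0.0234) or with all loci kept (0.0251). It also passed with the library number as a further term in the fit, the replicate block (0.0197). Without labelled mutant library 1 the log2 change was 2.10, and without labelled mutant library 2 it was 1.03. It was 1.42 without wild-type library 1 and 1.71 without wild-type library 2.

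AT3G53040 differed less, at 0.919 and 1.32 FPKM in wild-type seedlings, and the labelled mutant libraries had 1.71 and 2.01 FPKM. The groups did not overlap, and the log2 change was 0.44 (SE 0.18, interval 0.01 to 0.86, adjusted p = 0.283). ECP63, named after an embryogenic cell protein of carrot, stood at 0.253 and 0.604 FPKM in the wild-type libraries, against 0.539 and 1.03 FPKM in those of the labelled mutant. Its groups overlapped, with a difference in log2(FPKM + 1) of 0.32 that was not tested because only labelled mutant library 2 reached 1 FPKM.

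LEA7 was the member with a lower mean in the labelled mutant, within the spread of wild type. It stood at 8.30 and 5.43 FPKM in wild-type seedlings, and the labelled mutant libraries had 6.41 and 6.39 FPKM. Both labelled mutant values lay between the wild-type values. The log2 change was −0.06 (SE 0.19, interval −0.49 to 0.37, adjusted p = 0.905), an interval that leaves out a rise as large as that of AT3G17520. LEA7 was also the most abundant member in wild type.

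M17 and M10 encode a pair of small LEA proteins of the group known as AtM. M17 stood at 0.807 and 4.18 FPKM in the wild-type libraries, against 5.70 and 6.92 FPKM in those of the labelled mutant. Here the spread lay in wild type, where library 2 was 5.18 times library 1. The log2 change was 1.25 (SE 0.60, interval −0.53 to 3.03, adjusted p = 0.415), which did not pass. It moved with the wild-type library left out, to 2.01 (adjusted p = 3.72e-06) without library 2 and to 0.49 (adjusted p = 0.455) without library 1, each time with a single wild-type library. M10 was listed at 0 in wild-type library 1 and had 0.238 FPKM in wild-type library 2, while the labelled mutant libraries had 0.369 and 5.47 FPKM. Its difference therefore rested mainly on labelled mutant library 2. The difference in log2(FPKM + 1) was 1.42, and it was not tested, since only that library reached 1 FPKM.

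Libraries carry a number in the labels, which tie it to no shared plants or batch, so differences between same-numbered libraries are given as a description. Between libraries numbered 1 the median difference in log2(FPKM + 1) over the 9 genes was 0.81, and between those numbered 2 it was 1.14. M17 differed more between the libraries numbered 1 (1.89 against 0.61). EM6 differed more between the libraries numbered 2 (2.27 against 0.83). The same held for M10 (2.39 against 0.45). In 8 of the 9 genes library 2 lay above library 1 in both genotypes, against 32.5% of all loci above 0. LEA7 was the exception. The libraries of a genotype thus differed in the level of these genes in the same direction in wild type and in the labelled mutant.

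**Figure D2:**
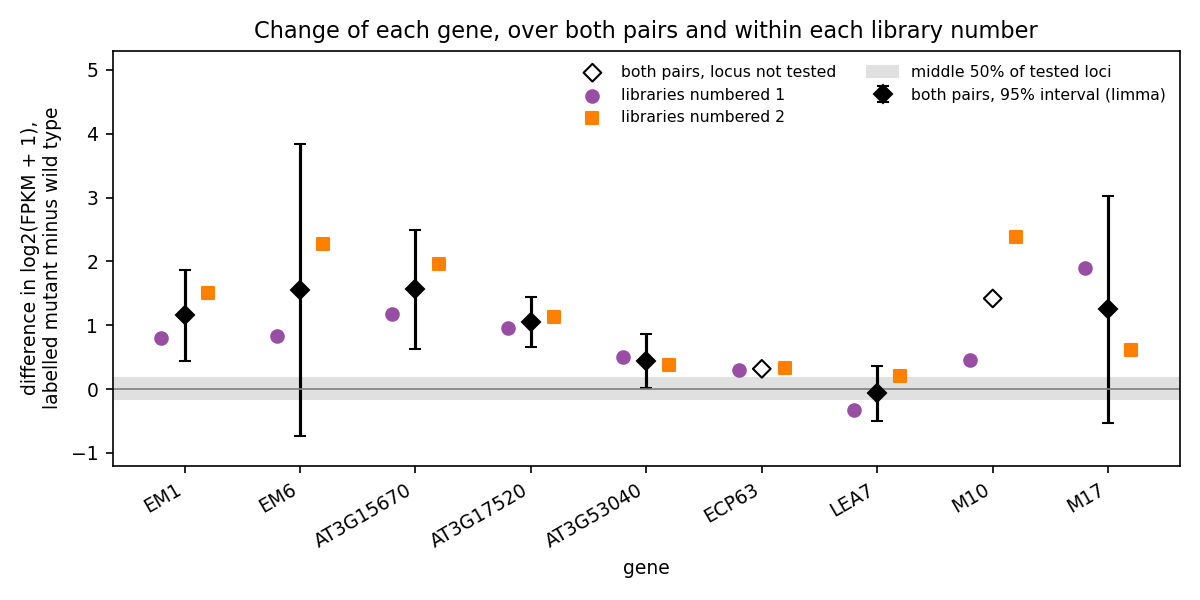
Difference in log2(FPKM + 1), labelled mutant minus wild type (vertical axis), for each gene (horizontal axis): black diamonds over both library pairs with 95% intervals from limma, open diamonds for the 2 genes not tested, purple circles between libraries numbered 1 and orange squares between libraries numbered 2. The interval is narrow for AT3G17520 (0.65 to 1.44) and wide for EM6 (−0.74 to 3.84), and the grey band marks the middle 50% of tested loci.

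The tests of single members depended on 1 library in several cases, as the plot of adjusted p by setting shows. AT3G17520 had the smallest adjusted p of the 7 genes with all 4 libraries. Without wild-type library 2 it had an adjusted p of 0.00368, and without wild-type library 1 one of 0.0224. AT3G53040 and LEA7 did not pass under any setting shown.

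**Figure D3:**
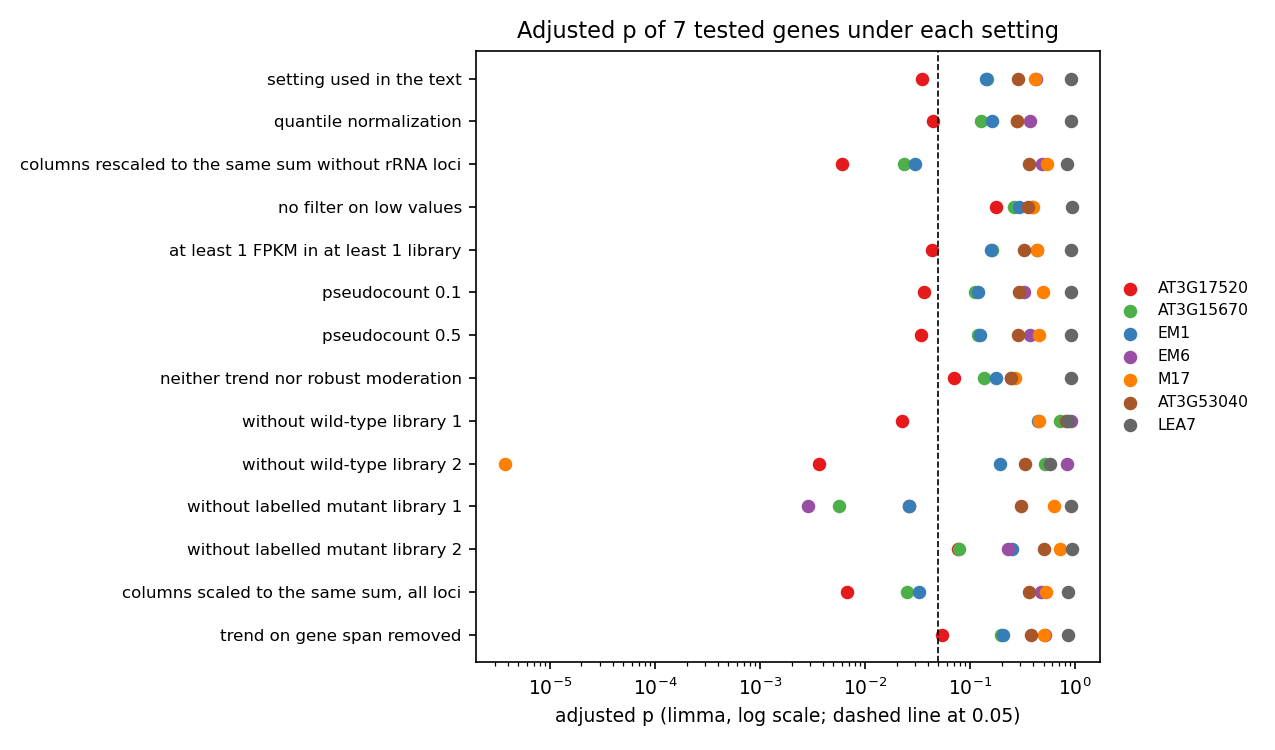
Adjusted p in limma on a log scale (horizontal axis) of the 7 tested genes, one colour each, with a dashed line at 0.05. The vertical axis gives the processing settings, without the replicate block. AT3G17520 is left of the line at 0.0348 with the setting used in the text, and M17 lies at 3.72e-06 without wild-type library 2 but at 0.455 without wild-type library 1.

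The order of the levels was not the same in both genotypes. In wild type LEA7 stood first at a mean of 6.87 FPKM and clear of the rest. AT3G17520, M17, AT3G15670, AT3G53040 and EM6 followed at means from 2.90 down to 1.06 FPKM, each overlapping its neighbour in this order. EM1 (0.488) and ECP63 (0.428) overlapped each other, and M10 was last at 0.119 FPKM. In the labelled mutant 5 genes lay close together, with means of 7.10 FPKM for AT3G17520, 6.46 for AT3G15670, 6.40 for LEA7, 6.31 for M17 and 6.16 for EM6. Their ranges overlapped, so no order can be given among them. M10 (2.92), EM1 (2.47) and AT3G53040 (1.86) came next, again with overlapping ranges, and ECP63 was lowest at 0.783 FPKM.

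The 39 other genes annotated to LEA families hold both seed and vegetative genes, and their median difference was closer to that of all loci. Their median difference in log2(FPKM + 1) was 0.22, and their summed level was 2642 and 2670 FPKM in wild-type seedlings, and the labelled mutant libraries had 2415 and 2662 FPKM. Of 27 that were tested, 2 rose, against 0.608% of all tested loci called higher and 0.552% called lower. No gene of this list was called lower in limma, and 2 had an unadjusted p under 0.05 in that direction, against 9 higher. Of all 19917 tested loci, 1584 were lower and 1836 higher at that unadjusted level. In this list XERO1 and LEA4-1 (AT1G32560), both among the 9 higher, reached 1 FPKM only in the labelled mutant libraries. They entered the test through the group where they are high, so the counts of this list are given as a description. Both labelled mutant libraries lay above both wild-type libraries in 17 of the 39, and below them in 8. The background over all loci above 0 is 21% above and 22.3% below. The 22 genes with a mean under 5 FPKM over the 4 libraries had a median difference of 0.33, and the 17 with a higher mean had a median of −0.01. Of the 22, group means were higher in the labelled mutant in 18 and lower in 3. Both labelled mutant libraries lay above both wild-type libraries in 11 of them and below in 2. The log2(FPKM + 1) scale understates differences at such levels. Splitting at 5 FPKM was chosen after the values were seen.

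The genes that rose were XERO1 and LEA3. XERO1 (AT3G50980), a dehydrin, stood at 0.266 and 0.217 FPKM in the wild-type libraries, against 1.53 and 2.60 FPKM in those of the labelled mutant. The groups lay far apart, and the log2 change was 1.28 (SE 0.22, adjusted p = 0.0410). It passed the filter on low values only through the labelled mutant libraries. The call ended without labelled mutant library 2 (adjusted p = 0.113), with quantile normalization (0.0825), with looser filters on low values (0.161 with none and 0.0670 with 1 FPKM in a single library), without the mean-variance trend and robust moderation (0.0561) and once a trend on gene span was taken out (0.0678). LEA3 (AT1G02820), of the LEA_3 group whose known members go to organelles, stood at 26.2 and 21.2 FPKM in wild-type seedlings, and the labelled mutant libraries had 54.0 and 50.1 FPKM. It rose 2.20-fold (log2 change 1.11, SE 0.14, adjusted p = 0.0106) and lost the call only with no filter on low values (0.112). LEA3 was far more abundant in wild type than any of the 9 genes.

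Within sequence families the levels ranged widely. The 3 LEA_1 genes had a median difference of 1.03, and the one with the highest mean over both genotypes, LEA4-2 (LEA18, AT2G35300), stood at 0.302 and 3.05 FPKM in the wild-type libraries, against 8.30 and 9.73 FPKM in those of the labelled mutant (log2 change 2.12, SE 0.67, adjusted p = 0.288). In wild type LEA4-5 had the higher mean (3.33 against 1.68 FPKM for LEA4-2). As with M17, LEA4-2 was much higher in wild-type library 2 than in wild-type library 1. The 10 dehydrins, which also guard leaves and roots against cold and drought, had a median of 0.10. Their most abundant gene, HIRD11 (AT1G54410), stood at 703 and 756 FPKM against 625 and 667, a log2 change of −0.17 (adjusted p = 0.629). Among the 11 other LEA_4 genes the median was 0.11, and the most abundant, COR15A, a cold-induced chloroplast protein, stood at 205 and 142 FPKM against 105 and 147 (adjusted p = 0.362). COR15B stood at 196 and 133 FPKM against 81.1 and 89.3, lower without overlap (log2 change −0.92, adjusted p = 0.0797 in limma). Group means were lower in the labelled mutant in 4 of the 11 and higher in 7. The LEA_2 genes had a median of −0.03, with LEA26 (AT2G44060) at 227 and 246 against 203 and 265 FPKM. In the LEA_3 group the drought-induced gene DI21 stood at 190 and 237 against 254 and 309 FPKM (adjusted p = 0.288). AT2G23120 of the PvLEA18 group stood at 184 and 133 against 172 and 153 FPKM. Of 6 seed maturation protein (SMP) genes a single locus, RAB28, was tested, at 1.82 and 1.24 against 1.54 and 2.51 FPKM. In wild-type library 1, 5 were listed at 0. Group means were higher in the labelled mutant in 5 of the 6 and lower in 1. One of those higher, ECP31, stood at 0 and 0.155 against 0.396 and 1.93 FPKM.

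**Figure D4:**
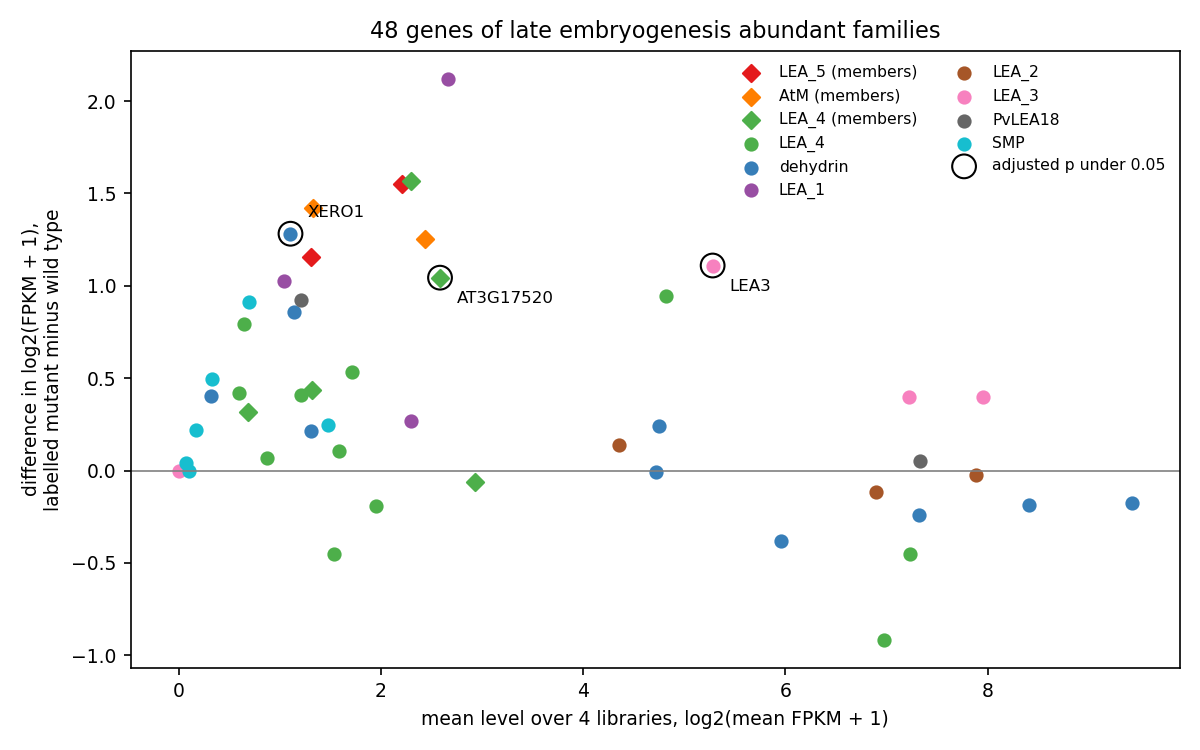
Difference in log2(FPKM + 1), labelled mutant minus wild type (vertical axis), against mean level over 4 libraries as log2(mean FPKM + 1) (horizontal axis) for 48 LEA genes, coloured by sequence family, with diamonds for the 9 genes described here and black rings for adjusted p under 0.05 in limma. AT3G17520, XERO1 and LEA3 carry rings, and HIRD11, which has the highest level, lies at −0.17.

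Other seed genes were higher in the same libraries. Storage protein and oil body genes, with the seed peroxiredoxin PER1, are made in the maturing embryo like the LEA genes. These 14 genes summed to 8.01 and 31.4 FPKM in wild-type libraries 1 and 2 and to 200 and 414 FPKM in labelled mutant libraries 1 and 2. All 14 had both labelled mutant libraries above both wild-type libraries, against 24.2% of all tested loci. Their median difference in log2(FPKM + 1) was 3.13, against 1.15 for the 9 LEA genes. All 5 albumin genes were listed at 0 in wild-type library 1. All 14 were tested in limma, and 12 had an unadjusted p under 0.05, all higher, against 17.2% of all tested loci. In this list 4 genes were called higher, against 0.608% of tested loci, namely SESA1, SESA2, SESA4 and OLEO4. The 3 albumin genes among them reached 1 FPKM only in the labelled mutant libraries and so entered the test through the group where they are high. The same held for SESA3, SESA5, the cruciferin gene CRU2 and the oil body gene CLO1, so the counts of this list are given as a description. The summed levels of the storage list and of the 9 LEA genes had the same order over the 4 libraries: wild-type library 1 lowest, then wild-type library 2, labelled mutant library 1 and labelled mutant library 2. In such bulk samples more cells of a seed type and more RNA per cell cannot be told apart.

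Seed tissues other than the embryo gave mixed values. EPR1, an extensin-like gene of the endosperm cap in germinating seeds, stood at 0.0225 and 0.223 FPKM in wild-type seedlings, and the labelled mutant libraries had 3.61 and 3.54 FPKM (log2 change 2.03, SE 0.18, adjusted p = 0.00273). EPR1 too reached 1 FPKM only in the labelled mutant libraries and entered the test through them. The seed coat genes BAN, TT12 and TT10 stayed under 1 FPKM in every library. BAN had 0.0915 FPKM at most. TT10 was lower in the labelled mutant without overlap, with a mean of 0.0604 ± 0.0160 FPKM against 0.159 ± 0.0577 FPKM in wild type (SD, n = 2), and was not tested. BAN was listed at 0 in wild-type library 1, and TT12 in wild-type library 2 and labelled mutant library 1. The 4 root markers summed to 71.3 and 112 FPKM in the wild-type libraries, against 238 and 184 FPKM in those of the labelled mutant, so they were highest in labelled mutant library 1, where the LEA genes were not. Most of this sum was IRT1, which stood at 45.4, 70.8, 174 and 146 FPKM in the same order and rose (adjusted p = 0.0305). The other 3 root markers were not called, and the median difference in log2(FPKM + 1) over the 4 was 1.26 for the pair of libraries numbered 1 and −0.02 for the other pair. The part of seed, endosperm or root RNA in the LEA differences was not tested.

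**Figure D5:**
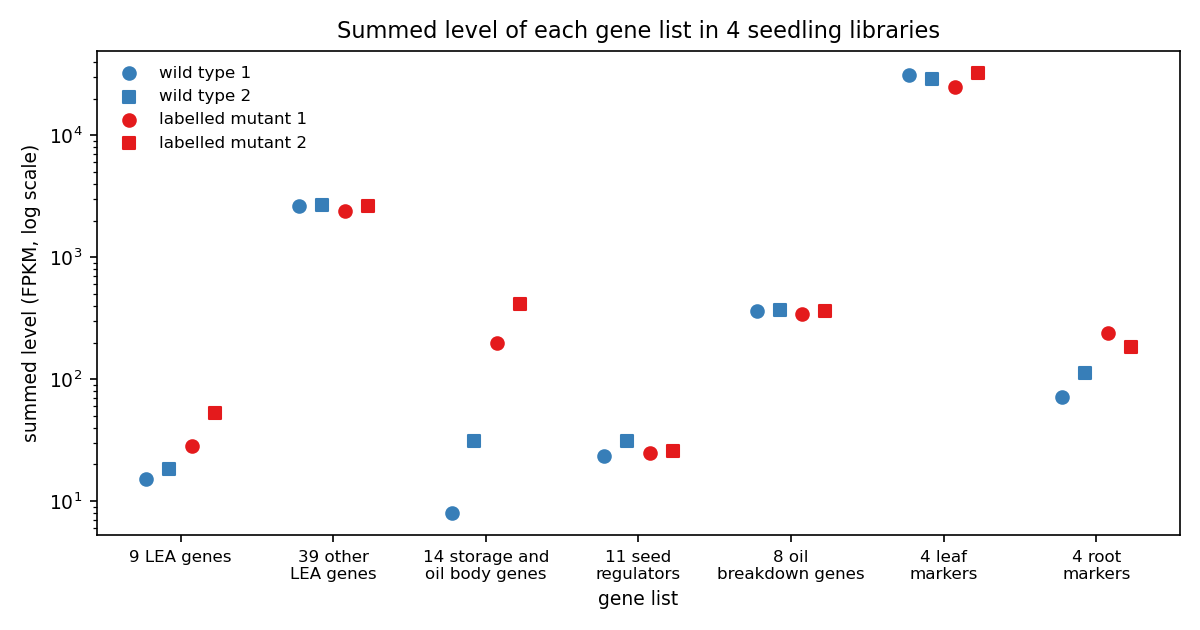
Summed level in FPKM on a log scale (vertical axis) of each gene list (horizontal axis) in the 4 libraries, with colours for genotype and shapes for library number. The 9 LEA genes and the 14 storage and oil body genes follow the same library order, while the 8 oil breakdown genes stay between 342 and 367 FPKM.

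Genes that control seed maturation had no call. Of 11 regulators, 5 were tested and none was called in limma, nor had any an unadjusted p under 0.05. Over all tested loci 0.608% were called higher, 0.552% were called lower and 17.2% had such a p. Little can thus be read from the absence of calls among 5 genes. ABI3, an activator of EM1 and EM6, stood at 0.0213 and 0.0833 FPKM in wild-type seedlings, and the labelled mutant libraries had 0.306 and 0.175 FPKM. These values are under the level of the test. ABI5 stood at 0.874 and 1.20 FPKM against 1.34 and 1.56, without overlap (log2 change 0.27, SE 0.18, adjusted p = 0.498). EEL, a bZIP factor known to compete with ABI5 at the EM1 promoter, stood at 3.15 and 5.41 FPKM against 4.12 and 4.31. VAL1 and VAL2 are B3 repressors that keep seed genes silent in seedlings. VAL1 stood at 8.08 and 10.3 FPKM against 7.28 and 8.24 (adjusted p = 0.525). VAL2 stood at 9.88 and 12.3 FPKM against 9.55 and 9.24 (adjusted p = 0.494). LEC1 was at 0 in 3 libraries, and stood at 0.0612 FPKM in labelled mutant library 2.

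Genes that burn the seed oil after germination had no call either. The 8 genes of this list summed to 362 and 367 FPKM in the wild-type libraries, against 342 and 362 FPKM in those of the labelled mutant. None was called in limma, where 0.608% of tested loci were called higher and 0.552% lower. A single gene had an unadjusted p under 0.05, against 17.2% of all tested loci, and nothing is read from these counts. That gene was ICL, the isocitrate lyase of the glyoxylate cycle, at 9.63 and 13.5 FPKM in wild-type seedlings, and the labelled mutant libraries had 14.6 and 20.4 FPKM (log2 change 0.56, SE 0.20, adjusted p = 0.235). Its partner MLS, malate synthase, stood at 2.72 and 3.85 against 3.94 and 4.08 FPKM (adjusted p = 0.530).

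None of the loci next to the 9 genes was called. The nearest protein-coding loci on either side gave 16 distinct neighbours. Of these 11 were tested in limma, with log2 changes from −0.32 to 0.40, and 2 had an unadjusted p under 0.05, both higher, against 17.2% of all tested loci. The range covers the differences of ECP63 and LEA7, and AT2G36630, next to ECP63, had a log2 change of 0.38 against 0.32 for ECP63. Both labelled mutant libraries lay above both wild-type libraries in 4 of the 16 and below them in 2, against 21% and 22.3% of all loci above 0. Unlike that background, the 16 include AT1G52695 and AT3G53050, which were listed at 0 in all 4 libraries. M17 and M10 are neighbours of each other on chromosome 2, separated by a pseudogene, AT2G41270, that was listed at 0 in all 4 libraries. On the outer sides of this pair AT2G41250 stood at 68.7 and 74.2 FPKM against 71.0 and 86.1, and SSL2 at 11.3 and 12.8 against 9.67 and 12.5. BHLH100, the next gene beyond AT2G41250 and named after its values were seen, stood at 60.7 and 85.5 FPKM against 230.0 and 198 FPKM and rose (log2 change 1.55, SE 0.18, adjusted p = 0.0103). The neighbours of AT3G17520 were CIPK1, at 46.4 and 49.9 against 46.6 and 50.7 FPKM, and AT3G17530, which stayed under 0.1 FPKM.

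Among 19845 tested loci outside the lists used here, those most like the LEA genes in pattern were found by the distance between profiles over the 4 libraries. A profile is log2(FPKM + 1) minus the wild-type mean of the same locus, and the reference was the median profile of the 9 genes, which runs from −0.15 and 0.15 (wild-type libraries 1 and 2) to 0.67 and 1.37 (labelled mutant libraries 1 and 2). The closest was CLE22, a gene for a small signalling peptide, at a distance of 0.17, with 1.92 and 2.76 FPKM in the wild-type libraries, against 3.75 and 7.92 FPKM in those of the labelled mutant. Next came RTFL19 (AT3G02493, distance 0.18), a small polypeptide gene, at 0.523 and 1.15 against 1.70 and 3.53 FPKM. They were followed by AT5G07330 (0.18), AT3G58450 (0.25), AT1G23410 (0.27), AT3G01570 (0.30), the pseudogene AT2G07786 (0.30) and MES18 (0.33), a methyl esterase gene. None of the 8 passed the test with all 4 libraries in limma, with adjusted p from 0.0594 to 0.265. All 8 had an unadjusted p under 0.05, against 17.2% of tested loci, but they were chosen for this pattern and nothing is read from that count. With a distance of 0.25 EM1 was itself the member closest to the median profile, AT3G17520 lay at 0.26, and LEA7 was farthest at 1.72.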

How the data were processed

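The authors deposited 1 table with an FPKM value per locus in every library, per the file headers. Per the labels' protocols, Trizol served for extraction and a TruSeq kit for library preparation. The submitters' processing notes list TAIR10, TopHat, Bowtie2 and bedtools without saying what each was used for. Which program computed FPKM, with which gene models and strand setting, is not given in the sources used here. Columns were matched to libraries by genotype and number, with the heading bc read as hd2b hd2c, the other genotype with RNA libraries.

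Values were transformed to log2(FPKM + 1), and 19917 of 33278 loci, those that reached 1 FPKM in 2 or more libraries, entered a fit in limma 3.58.1 (R 4.3.3) with genotype as its single term, a mean-variance trend and robust moderation. Two-sided p-values were adjusted over these loci (Benjamini-Hochberg). This scale understates changes of weakly expressed genes. Folds are ratios of group means of FPKM. The fit was tested on simulated data in which spread followed mean level alone. Loci that vary more than others of their level were not simulated.

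Names and gene order came from a RefSeq table of assembly TAIR10.1, which matched 98.6% of loci and served for names, neighbours and, in alternatives, gene span and rRNA class. No coordinates or sequences are printed. The members and lists were chosen with earlier results of these data known. LEA sequence families follow common usage. Named genes were the 9 members, called genes of the lists (at most 4 per list), the most abundant gene of each LEA family and the 8 loci most like the members. Others (VAL1, VAL2, ABI3, ABI5, EEL, LEC1, MLS, ICL, PER1, the seed coat, endosperm and root markers and neighbours) were named after their values were seen. So were COR15B, ECP31, LEA4-1, SESA3, SESA5, CRU2 and CLO1.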

Additional observations from a re-analysis of the deposited data

How the results depend on the processing

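Precision is limited by 2 libraries per genotype and by levels under about 10 FPKM with unknown depth. Of the 9 LEA genes, 1 was called higher with all 4 libraries. The count was 3 after rescaling without rRNA loci, 3 after scaling to the same sum, 2 with the replicate block (AT3G15670 gained the call, adjusted p = 0.0197), and 0 with no filter on low values, without trend and robust moderation, or with the trend on gene span removed. It ranged from 0 to 4 when each library was left out in turn; then 1 group has a single library, which is assumed to vary like the other group. In 102 refits of single members, 4 lost the call (all AT3G17520) and 9 gained it. Another 88 kept direction and side of the threshold. These 88 count 2 refits each of ECP63 and M10, which had no test in the fit used here and were not called. LEA7 changed sign in 1, to 0.20 without wild-type library 1 (adjusted p = 0.862), against −0.33 without wild-type library 2, and the cause was not tested. None of the 9 was called lower in any setting.

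The wider LEA family had 2 higher calls, and 1 with quantile normalization, 1 with a filter of 1 FPKM in a single library, 1 without trend and robust moderation, 1 with the trend on gene span removed, 0 with no filter and 2 to 4 with a library left out. Lower calls numbered 0, and 1 under both rescalings, with 0 to 1 when a library was left out. Over all loci 121 were higher and 110 lower. These became 332 and 284 after rescaling without rRNA loci, 320 and 274 after scaling to the same sum, 19 and 20 with no filter, 69 and 66 without trend and robust moderation, and 260 and 172 with the replicate block. With a library left out, 147 to 364 were higher and 115 to 155 lower. The labels tie the numbers to no batch; deviations of same-numbered libraries correlated at 0.168 across loci. Scaling to the same sum and removal of the span trend were chosen after seeing the data.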
